A study of Mus musculus with 6 samples.

Results

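The regions described here are stretches of the mouse genome between protein-coding genes that carried a peak of histone H3 acetylated at lysine 27 (H3K27ac) in all 3 libraries of Ppp2ca-deficient hematopoietic stem cells and in none of the 3 wild-type libraries. They were selected on the presence and absence of peaks in the 6 deposited lists. The peaks of all lists on chromosomes 1 to 19 and X were merged wherever they overlapped by at least 1 bp. A merged region was kept when it lay outside every RefSeq protein-coding gene and more than 5 kb from every end of such a gene. This left 700 knockout-only regions between genes, out of 30395 merged regions between genes and 104143 merged regions in all. Their absence from the wild-type lists is therefore how they were chosen and is given without a test.

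The 3 knockout libraries came from mice deficient in Ppp2ca and the 3 wild-type libraries from mice with intact Ppp2ca. No label numbers the animals, and each library was taken as 1 mouse. The cells were primary hematopoietic stem cells from bone marrow, profiled by CUT&RUN, in which an antibody guides a nuclease to the mark and the released fragments are sequenced. Strain, age, sex, the deleted part of Ppp2ca, any Cre driver, the markers used to isolate the cells and the antibody are not stated in the sources used here. A peak list does not show the deletion, and the ends of Ppp2ca itself carried a peak in all 3 knockout and all 3 wild-type libraries. Of 13 stem and progenitor genes, between 4 and 6 carried a peak within 1 kb of a gene end in each knockout library, and 4 or 5 in each wild-type library. Runx1, Tal1 and Ptprc were marked in all 6 libraries, whereas Ly6a, Slamf1, Cd34, Mecom, Hlf and Gata2 were marked in none.

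H3K27ac is laid down by the acetyltransferases p300 and CBP and is found at active promoters and at active enhancers. Enhancers often lie far from the gene they act on, and blood stem and progenitor genes such as Gata2, Myc and Runx1 are known for distant ones. A mark between genes can also belong to a promoter of a non-coding RNA. Ppp2ca encodes a catalytic subunit of protein phosphatase 2A (PP2A), a serine/threonine phosphatase with many substrates in the cytoplasm and nucleus.

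Among the knockout-only regions, 32 overlapped a promoter window of a RefSeq long non-coding RNA gene, counted as the 250 bases before and the 50 bases after a transcription start. There were 36 such windows, of 34 genes, and 33 of the starts lay inside the region. The 4 below are shown because each start lay inside a region with a q-value no higher than 0.05 in all 3 knockout libraries, and because they run from very GC-rich to GC-poor. They were chosen after their values had been seen. The sequences are those of RefSeq on GRCm38.p6, 5′ to 3′ along the gene's own strand, in lower case. Capitals mark motifs found on either strand: GGGCGG, the core of the GC box to which Sp1 binds; CCAAT, the core of the element bound by NF-Y; and CCGGAAG, a form of the core bound by ETS factors. In Smkr-ps a GC box on the opposite strand shares 2 bases with a CCAAT. The window of 9430091E24Rik is chr8:111145449-111145748 on the minus strand, that of 2900076A07Rik chr7:81523300-81523599 on the plus strand, that of Smkr-ps chr6:29985079-29985378 on the plus strand, and that of Gm13470 chr2:46442856-46443155 on the minus strand.
9430091E24Rik: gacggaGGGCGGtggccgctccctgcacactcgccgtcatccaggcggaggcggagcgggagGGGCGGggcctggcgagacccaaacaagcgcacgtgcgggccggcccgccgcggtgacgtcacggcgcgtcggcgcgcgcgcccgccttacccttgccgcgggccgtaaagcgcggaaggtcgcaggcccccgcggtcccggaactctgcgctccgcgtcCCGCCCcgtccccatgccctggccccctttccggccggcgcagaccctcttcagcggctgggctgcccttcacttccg
2900076A07Rik: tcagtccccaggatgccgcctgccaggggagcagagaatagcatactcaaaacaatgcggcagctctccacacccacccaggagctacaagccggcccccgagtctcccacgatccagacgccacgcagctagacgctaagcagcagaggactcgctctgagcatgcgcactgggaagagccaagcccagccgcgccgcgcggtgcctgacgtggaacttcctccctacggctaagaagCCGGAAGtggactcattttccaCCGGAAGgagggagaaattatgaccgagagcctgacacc
Smkr-ps: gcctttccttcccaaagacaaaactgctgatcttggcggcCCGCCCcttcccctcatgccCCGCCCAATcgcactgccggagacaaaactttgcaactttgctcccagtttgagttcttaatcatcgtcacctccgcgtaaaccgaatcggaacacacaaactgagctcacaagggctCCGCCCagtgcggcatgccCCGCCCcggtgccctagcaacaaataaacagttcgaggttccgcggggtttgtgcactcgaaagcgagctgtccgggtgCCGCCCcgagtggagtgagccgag
Gm13470: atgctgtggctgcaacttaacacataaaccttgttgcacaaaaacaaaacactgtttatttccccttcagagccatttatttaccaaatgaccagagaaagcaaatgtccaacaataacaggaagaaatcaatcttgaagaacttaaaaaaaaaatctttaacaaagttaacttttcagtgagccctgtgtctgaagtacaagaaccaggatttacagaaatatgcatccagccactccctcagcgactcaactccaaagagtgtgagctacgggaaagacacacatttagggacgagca

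The first of these windows was 76.7% G or C with 46 CG dinucleotides, and that of Gm13470 was 39% G or C with 3. Over the 36 windows the median was 47.0% G or C, against 48.3% over all 11574 windows of non-coding genes. GGGCGG stood in 7 of the 36 windows (19.4%), against 16.3% of all non-coding windows. CCAAT stood in 13 (36.1%, against 35.9%), TATAAA in 2 (5.56%, against 15.5%), CCGGAAG in 3 (8.33%, against 3.90%), and TGACTCA, the AP-1 core, in 3 (8.33%, against 6.20%). All motifs were searched on both strands, and with 36 windows each count differs from its background by a few windows at most. A match is a string of letters and no measured site.

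MicroRNA genes lay within 10 kb of 11 knockout-only regions (1.57%), against 1.76% of the 851 regions between genes with a peak in all 6 libraries and 0.674% of all regions between genes. The genes were Mir8099-2, Mir7233, Mir1839, Mir1949, Mir6367, Gm51276, Mir1946b, Mir760, Mir3965, Mir34a, and Mir29a with Mir29b-1. The mature RNAs below are those of the 3 best-ranked of these regions for which a sequence is printed, and those of Mir34a and the Mir29 pair, which were chosen after their values had been seen because they are widely studied. They are RefSeq sequences on GRCm38.p6, 5′ to 3′, with the seed (bases 2 to 8) in capitals.
mmu-miR-8099: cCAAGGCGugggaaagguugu
mmu-miR-7233-3p: uAUUGUCUgccuuuaggucuac
mmu-miR-1839-5p: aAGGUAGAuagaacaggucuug
mmu-miR-34a-5p: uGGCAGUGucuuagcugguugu
mmu-miR-29a-3p: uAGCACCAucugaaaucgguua
mmu-miR-29b-3p: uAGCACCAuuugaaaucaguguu

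miR-29a-3p and miR-29b-3p carry the same seed, AGCACCA, and are made from precursors that lie side by side. The region next to them was chr6:31065078-31065997, 1985 bp from Mir29b-1 and 2331 bp from Mir29a, and on the upstream side of both minus-strand genes. Its fold over background was 4.24, 3.00 and 3.25 in knockout replicates 1 to 3, and a q-value no higher than 0.05 was reached in 1 of these libraries. Mir34a, a gene known to respond to p53, had a region 7614 bp from it with folds of 3.68, 3.05 and 4.93, and the q threshold was met in 2 libraries. Counted from the top of each list, the weakest of the 3 peaks stood at 78.7% of the list near Mir29a and at 77.3% near Mir34a, both in knockout replicate 2, so these were among the weaker regions.

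The lists differed in length. They counted 50453, 34016 and 35629 peaks in knockout replicates 1 to 3, against 22066, 29945 and 21917 in wild-type replicates 1 to 3. Because the lists hold no read totals, depth was gauged through the peaks: the commonest background, in fragments per 200 bp, was 0.738, 0.465 and 0.827 in the knockout libraries and 0.499, 0.584 and 0.498 in the wild-type libraries. The groups overlapped on this measure (two-sided exact permutation test, p = 0.4, n = 3 each). With 3 libraries against 3, the smallest p that this test allows is 0.1. A listed peak rested on as few as 3 or 4 fragments in the knockout lists and 3 in the wild-type lists, so a region that misses a list may still carry the mark at a lower level. Fewer cells with the mark and less of it per cell cannot be told apart in such libraries.

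Knockout-only regions made up 2.30% of all merged regions between genes, against 2.71% of merged regions anywhere, where 2823 were knockout-only. Of the others between genes, 1495 had peaks in 2 knockout and no wild-type libraries, and 660 had peaks in 3 knockout libraries and 1 wild-type library; these lie just outside the rule. A further 601 had peaks in 3 knockout and 2 wild-type libraries. The reverse pattern, a peak in all 3 wild-type and no knockout libraries, was found 15 times. The number of knockout-only regions was 311 when each list was cut to the same number of best peaks, was 379 when non-coding genes had to be avoided too, and was 1477 without knockout replicate 2 and 1120 without knockout replicate 3. Most regions between genes were seen in 1 library alone, 11769 in a knockout and 12550 in a wild-type library. At the distance limit, the nearest regions inside the rule were 5014 bp from Cdk19 and 5025 bp from Fth1, and the nearest knockout-only region outside it was 4999 bp from Gpsm2.

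**Figure D1:**
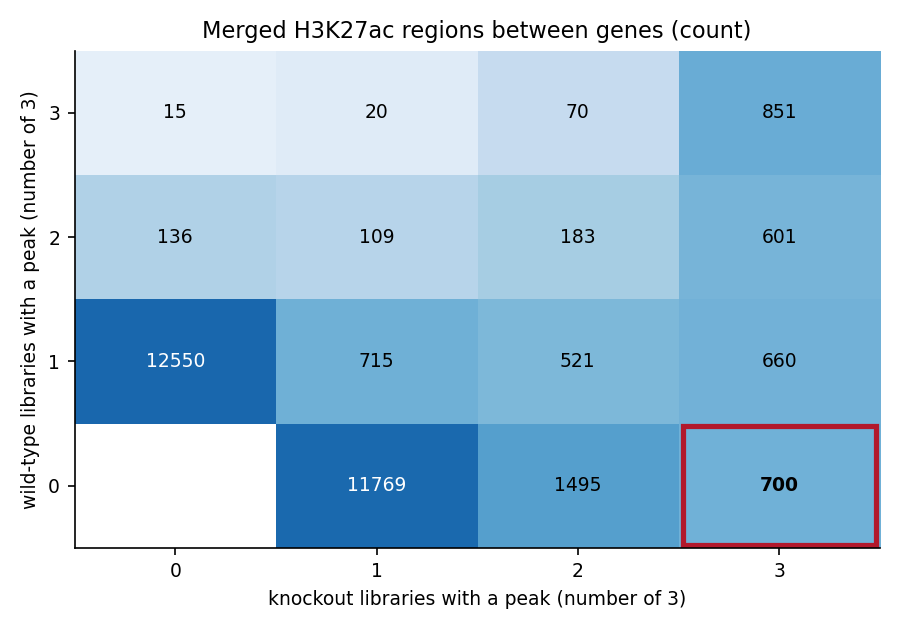
Number of merged H3K27ac regions between genes by how many knockout libraries (horizontal axis) and how many wild-type libraries (vertical axis) had a peak there; shading is on a log scale. The outlined square holds the 700 regions described, against 15 in the opposite corner.

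The knockout lists were not richer in peaks between genes as a share. Such peaks made up 25.8%, 19.99% and 20.9% of the knockout lists, against 26.03%, 29.9% and 26.01% of the wild-type lists. Every knockout library lay below every wild-type library, knockout replicate 1 only by a fraction of a point. The means were 22.2 ± 3.11% in knockout and 27.3 ± 2.26% in wild type (SD, n = 3 each), a difference of -5.11 points (two-sided exact permutation test, p = 0.1, the smallest it allows). On chromosomes 1 to 19 alone the difference was -4.55 points and the groups overlapped (exact permutation p = 0.3). With peaks of a −log10 p-value of at least 3 it was -4.37 points, also with p = 0.3 in the exact permutation test. The direction turned when only peaks with a q-value no higher than 0.05 were counted: 20.1%, 18.7% and 20.5% of the knockout lists and 18.7%, 17.4% and 18.1% of the wild-type lists, a difference of 1.70 points (exact permutation p = 0.2). In number, peaks between genes that met this threshold came to 4434, 3004 and 4869 in the knockout lists and 680, 814 and 658 in the wild-type lists, groups that did not overlap (exact permutation p = 0.1). Wherever they lay, 22099, 16090 and 23707 peaks met it in the knockout lists, against 3633, 4675 and 3645 in the wild-type lists. The gap was thus not particular to peaks between genes. Since q-values depend on depth and on the length of the list, the part of depth in these counts was not tested. The 700 regions took up 762, 754 and 757 peaks, or 5.87%, 11.1% and 10.2% of the between-gene peaks of knockout replicates 1 to 3.

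**Figure D2:**
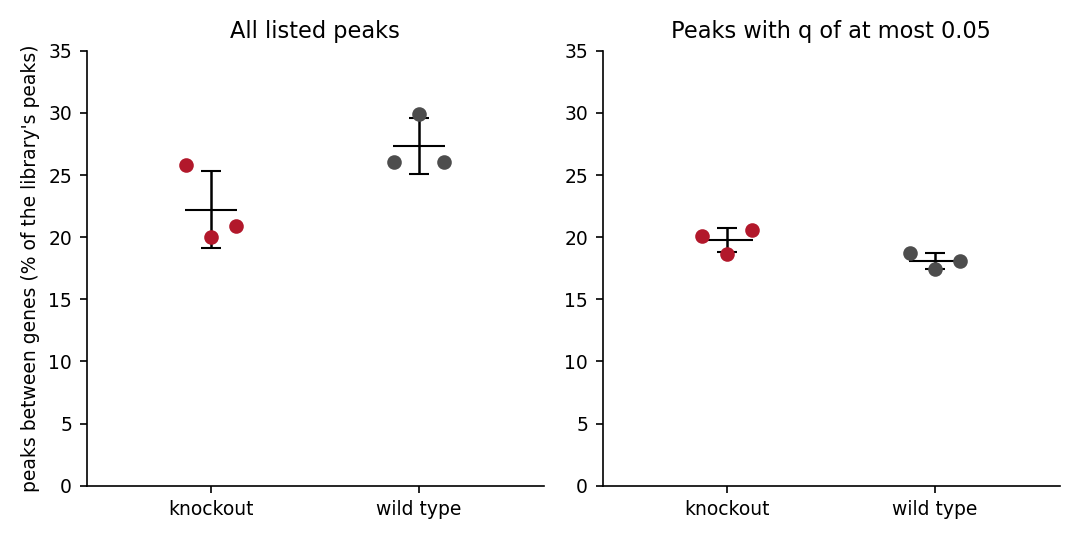
Peaks between genes as a percentage of each library's listed peaks, for all peaks (left) and for peaks with a q-value no higher than 0.05 (right). Points are libraries, and bars are the mean and SD of 3. All knockout points lie below the wild-type points on the left, and the knockout mean lies above the wild-type mean on the right.

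By p-value, the regions' best peaks stood at a median of 33.9%, 46.3% and 44.6% down the lists of knockout replicates 1 to 3. The set was chosen for having no wild-type peak. The authors' fold over background at the best peak had medians of 3.76, 3.66 and 3.83 in knockout replicates 1 to 3, and ran between 2.20 and 10.1 over the 3 libraries. Median summit pileups, solved from the fold and the p-value, were 7, 5 and 8 fragments, against 6, 6 and 9 over all peaks of these lists. The best peak was 454, 348 and 418.5 bp wide at the median, and in knockout replicate 2 more of these peaks (21.1%) had the shortest width seen, 200 bp, than in replicates 1 and 3 (9.43% and 9.29%). A typical region thus rested on few fragments in each library, and fewest in knockout replicate 2.

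A q-value of at most 0.05 was reached in all 3 knockout libraries by 216 of the 700 regions (30.9%, Wilson 95% interval 27.5% to 34.4%), against 56.1% of the 2812 regions between genes that had a peak in all 3 knockout libraries whatever the wild type showed. A further 277 reached it in 2 libraries, 159 in 1 and 48 in none. In replicates 1 to 3 the share was 66.7%, 51.3% and 76.4%. The rule used these contrasts, so nothing is read from the lower share. With the 21822 best peaks taken from each list the share was 75.2% of 311 regions. That cut fixes part of this share: 22099 peaks of knockout replicate 1 and 23707 of replicate 3 met the threshold. Every peak kept from these lists thus met it, and only replicate 2, with 16090, could fall short. Regions present in all 6 libraries had median folds of 4.59, 4.39 and 4.74 and median pileups of 14, 10 and 16 in the same knockout libraries. Both sets were chosen on presence in the wild-type lists, so nothing is read from this difference in height either.

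Compared with other knockout-only regions, those between genes stood between 2 other classes in height; a further 336 knockout-only regions belong to none of these 3 classes and were not compared. At gene ends, within 1 kb of an end, 935 knockout-only regions had median folds of 4.04, 3.78 and 4.17 in knockout replicates 1 to 3. Deep inside genes, over 5 kb from either end, 852 had 3.50, 3.53 and 3.54. The regions between genes were lower than those at gene ends in each of the 3 libraries, by a mean of -0.24 ± 0.11 fold units (SD over libraries), and higher than those deep inside genes in each of the 3, by 0.23 ± 0.09 (exact sign-flip permutation over the 3 libraries, p = 0.25 for either, the smallest it allows, and 0.3 after Benjamini-Hochberg adjustment over the 6 comparisons made). They were narrower than those at gene ends in all 3 libraries, by a mean of -93.2 ± 52.99 bp (exact sign-flip p = 0.25). Against regions deep inside genes the width differed by 22.3 ± 22.6 bp, with 1 of 3 libraries in the other direction (exact sign-flip p = 0.5). None of these differences can be called with 3 libraries.

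**Figure D3:**
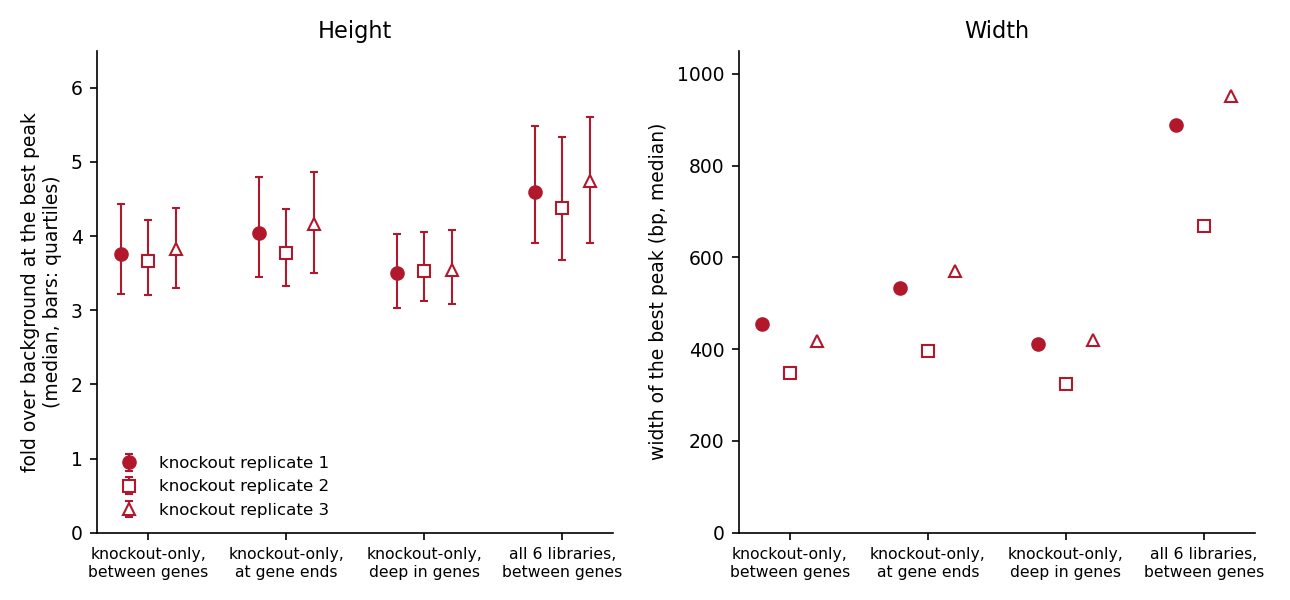
Height and width of the best peak in each knockout library for 4 classes of region. Symbols are the medians of the libraries and bars on the left the quartiles over regions. Knockout-only regions between genes lie below those at gene ends in each library, with medians of 3.66 to 3.83. Regions of all 6 libraries are the highest and widest, but they were chosen on presence in the wild-type lists, so nothing is read from this.

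The 3 knockout libraries did not always place their peaks on the same bases. At least 1 base was covered by peaks of all 3 in 574 regions (82.0%, Wilson 95% interval 79.0% to 84.7%), against 87.5% at gene ends and 78.3% deep inside genes. Where there was an overlap, its median length was 197 bp, in regions whose median width was 775 bp. The summits of the 3 libraries lay within 200 bp of each other in 232 regions (33.1%), and the median spread was 286.5 bp. In the other regions no base was covered by all 3 libraries, and their peaks were joined end to end by partial overlaps. The 4 regions with the most shared bases lay nearest to Cd40lg on the X chromosome (999 bp), Ado (802 bp), Ptprc (791 bp) and Cstad (772 bp). Ptprc encodes the leukocyte antigen CD45, and its region was 310 kb from the gene with folds of 4.85, 4.85 and 4.67. The Cd40lg region had folds of 5.34, 3.05 and 6.88, and its peak of knockout replicate 2 rested on 4 fragments and missed the q threshold, so long overlap did not mean a strong peak in each library.

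The strongest regions, ranked by the position of their weakest peak in the 3 knockout lists, were led by chr19:16028879-16029929. It lay 43.2 kb from Cep78, a centrosomal protein gene. Its folds were 6.02, 5.34 and 6.34 in knockout replicates 1 to 3, on 12, 10 and 16 fragments, and 768 bases were shared by all 3 libraries. Even this region, the best of the 700, stood only 10.3% down the list of its weakest library.

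Next was chr3:96414292-96414957, which overlaps Terc, the gene of the RNA template of telomerase; the nearest protein-coding gene, BC107364, was 18.8 kb away. Folds were 5.75, 5.46 and 6.57 on 9, 7 and 11 fragments, and the q threshold was met in all 3 libraries. The nearest peak of any wild-type list was 23.7 kb away. Telomerase, which extends chromosome ends, is active in blood stem cells.

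The region near Sde2, a gene of genome maintenance and splicing, had folds of 6.14, 5.32 and 5.98 at chr1:180835292-180836011, 15.1 kb from the gene. On chromosome 12, chr12:93928504-93929427 overlapped the pseudogene Gm9726 and lay 1034 kb from the nearest protein-coding gene and 1040 bp from Mir8099-2, whose mature sequence is given above. Its folds were 5.18, 5.41 and 6.06. Strong regions thus occurred both near genes and in gene deserts.

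The remaining 8 of the 12 best-ranked regions lay nearest to Atp11b, Eloa, Scarb1, Nceh1, Sertad2, Nt5m, Trim2 and Ywhaq. Scarb1 encodes a receptor for high-density lipoprotein, Nceh1 a cholesterol ester hydrolase and Ywhaq a 14-3-3 protein that binds phosphorylated serine and threonine. The Atp11b region had folds of 4.81, 6.57 and 5.20, the highest value in knockout replicate 2. The Eloa region had the lowest folds of the 12, at 4.10, 3.69 and 3.62, on the most fragments, 24, 15 and 25, so a high local background stood under it. In all 12 regions at least 149 bases were shared by the 3 libraries. The Trim2 region, which overlaps the long non-coding RNA gene 4930565D16Rik, had a wild-type peak 0.175 kb away, whereas the nearest wild-type peak to the Sertad2 region was 44.9 kb off.

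**Figure D4:**
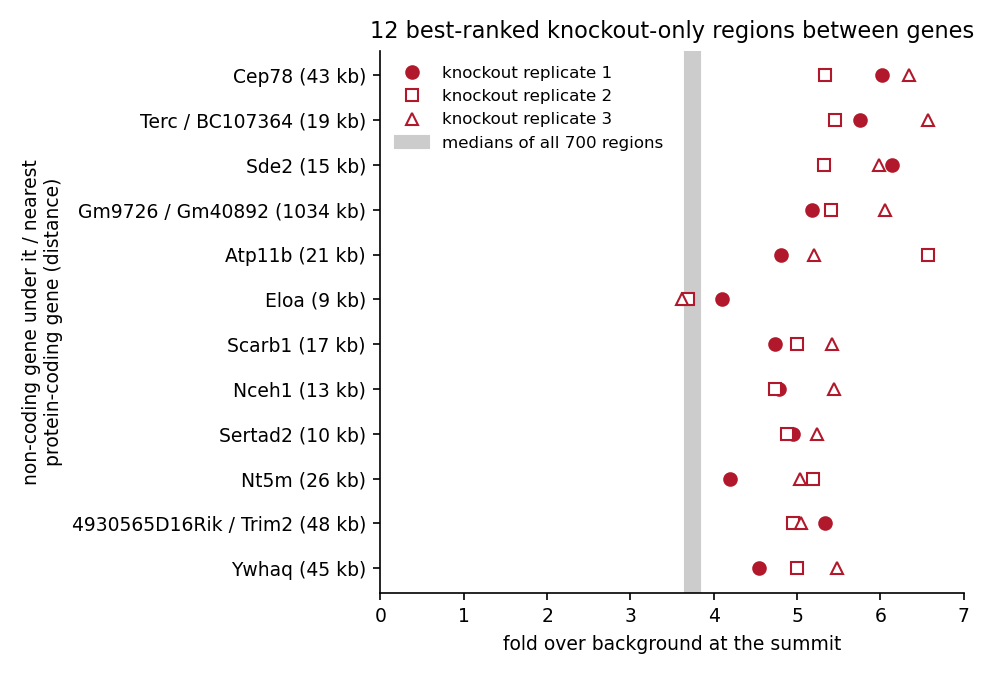
Fold over background in each knockout library for the 12 best-ranked knockout-only regions between genes, best at the top, with the non-coding gene under the region where there is one, the nearest protein-coding gene and the distance to it. The grey band spans the medians of all 700 regions in the 3 libraries, 3.66 to 3.83. Only the Eloa region has points inside or below the band.

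The nearest peak of any wild-type library was a median of 7.48 kb away; 58 regions (8.29%) had one within 0.2 kb and 135 (19.3%) within 1 kb. At knockout-only regions at gene ends the median was 7.90 kb, deep inside genes 5.41 kb, and at regions between genes with peaks in 2 or 1 knockout libraries and none in wild type 6.93 and 10.9 kb. The nearest region present in all 6 libraries was a median of 58.9 kb away.

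Distances to genes were similar to those of the regions present in all 6 libraries. The median distance to the nearest protein-coding gene end was 25.3 kb (quartiles 11.2 and 64.5 kb), against 26.9 kb for the 851 regions of all 6 libraries and 39.9 kb for all regions between genes. Within 25 kb lay 143 regions at 5 to 10 kb and 205 at 10 to 25 kb, and 32 (4.57%) lay over 250 kb away, against 6.46% in all 6 libraries and 12.6% of all regions. The farthest region, chr2:46442849-46443981, was 1325 kb from Zeb2, a transcription factor of blood and neural cells, and overlapped the start of Gm13470, the GC-poor window shown above. Its folds were 4.69, 3.90 and 4.04, and all 3 libraries met the q threshold. A region 1210 kb from Ndufa4 had folds of 4.03, 5.06 and 3.83 with the nearest wild-type peak 116 kb off, and a region 744 kb from Myc had 2.87, 2.70 and 3.23 and met the threshold in no library.

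**Figure D5:**
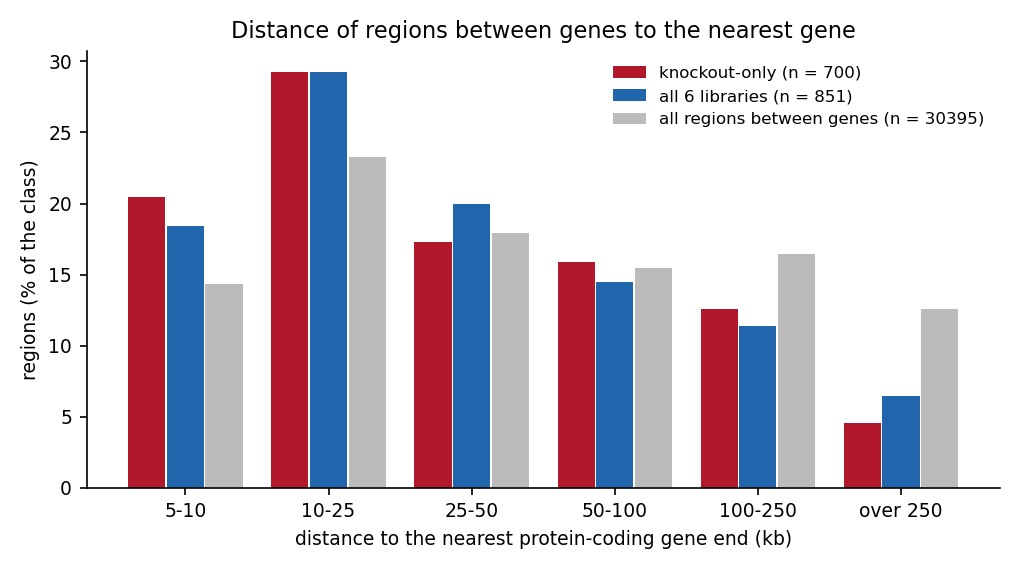
Share of regions between genes by distance to the nearest protein-coding gene end, for knockout-only regions, regions of all 6 libraries and all regions between genes. Knockout-only regions and regions of all 6 libraries have similar bars, and 4.57% of knockout-only regions lie over 250 kb away, against 12.6% of all regions between genes.

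By chromosome, the knockout-only share of regions between genes was highest on chromosome 19, 26 of 813 (3.20%, Wilson 95% interval 2.19% to 4.64%), and lowest on X, 12 of 1421 (0.844%, 0.484% to 1.47%). The sex of the mice is not stated in those sources, and the part of the number of X chromosomes per library was not tested. Chromosome 14 was next lowest, with 16 of 1316 (1.22%).

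Most regions stood alone. Chained when under 50 kb apart, 562 had no knockout-only neighbour, 120 formed pairs and 18 formed 6 groups of 3. The best-ranked group spanned 48.2 kb near Kcnj2, an inward-rectifier potassium channel gene, and its members lay 11.1, 11.8 and 24.1 kb from the gene. The member at 24.1 kb had folds of 4.10, 4.41 and 4.39, the others reached the q threshold in 1 or 2 libraries. The next groups lay near Raph1, over 62.1 kb, between Zdhhc19 and Tfrc, over 54.3 kb, and near Atp1b3, over 25.3 kb. Tfrc encodes the transferrin receptor, the iron importer of erythroid precursors. The Raph1 group fell off within itself: the member 12.8 kb from the gene had folds of 6.25, 4.09 and 6.06, and the member at 74.2 kb had 2.22, 2.73 and 4.38.

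The 700 regions had 601 different nearest genes, of which 76 had at least 2 and 17 at least 3. Jarid2 and Cited2 had 5 each, and Myc and Edn1 had 4 each; these genes are named after their counts were seen. Jarid2 encodes a cofactor of Polycomb repressive complex 2, Cited2 a partner of p300 and CBP needed by blood stem cells, Myc a growth regulator and Edn1 the peptide endothelin. Large gaps hold more regions of every kind: Cited2 was nearest to 95 regions between genes, Myc to 70, Jarid2 to 53 and Edn1 to 15. Edn1 did not stand alone in this, as Raph1 had 3 knockout-only regions of 6 and Ahi1 3 of 10. The 2.30% over all regions between genes cannot be set against genes picked for their counts.

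Non-coding genes were overlapped by 197 of the 700 regions (28.1%, Wilson 95% interval 24.9% to 31.6%), against 35.8% of the 851 regions of all 6 libraries and 22.1% of all regions between genes. Long non-coding RNA genes made up 168 of these, pseudogenes 14, tRNA genes 8 and segments of antigen receptor loci 5, with 1 snRNA gene, 1 miRNA gene and Terc. After Terc, Gm9726 and 4930565D16Rik, the best-ranked were the regions over n-TEttc6, a glutamate tRNA gene (folds 4.59, 4.69 and 4.66), 1110020A21Rik (4.26, 4.84 and 4.28) and Gm40402 (4.12, 5.29 and 6.36). The first gave nearly the same fold in the 3 libraries. The region over 1110020A21Rik had no base covered by all 3 although each met the q threshold. The regions over the long non-coding starts shown above had folds of 5.60, 5.70 and 4.13 at 9430091E24Rik, 4.63, 4.32 and 4.09 at 2900076A07Rik and 5.41, 5.95 and 4.12 at Smkr-ps. At each of these starts all 3 knockout libraries met the q threshold. The nearest wild-type peak lay 30.6 kb from the region at 9430091E24Rik and 52.9 kb from that at Smkr-ps, but only 0.014 kb from that at 2900076A07Rik.

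tRNA genes are short genes transcribed by RNA polymerase III, whose active copies lie in open, acetylated chromatin. Of 55 regions between genes over tRNA genes, 8 were knockout-only (14.5%), a larger share than the 2.30% of all regions between genes. Among regions with peaks in all 3 knockout libraries the share was 8 of 28 (28.6%, Wilson 95% interval 15.3% to 47.1%), against 700 of 2812 (24.9%); the interval spans the share of all regions. Of 408 tRNA genes anywhere, 102, 90 and 99 lay under a region with a peak of knockout replicates 1 to 3, against 52, 60 and 57 for the wild-type replicates. As shares these were 25%, 22.1% and 24.3%, against 12.7%, 14.7% and 13.97%. Over all 27923 genes that are not protein-coding the shares were 15.2%, 10.99% and 11.6%, against 8.33%, 10.3% and 8.28%, so knockout lists covered more of these genes in general. Besides n-TEttc6, all 3 knockout libraries met the q threshold at n-TIaat8, n-TKctt14 and n-TIaat17, a lysine and 2 isoleucine tRNA genes.

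Regions near genes of blood stem cells and of signalling were counted with 17 lists of genes. Each region was assigned to its nearest protein-coding gene end, within 100 kb, and over all genes 580 of 21586 such regions (2.69%) were knockout-only. The list shares below rest on few regions, and each Wilson 95% interval reaches from under to above that background unless stated.

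Transcription factors of the blood stem cell network and genes with known distant enhancers had 6 knockout-only regions of 160 (3.75%, interval 1.73% to 7.94%), nearest to Myc, Ikzf2, Lmo2, Myb, Runx1 and Erg. The Myc region lay 65.9 kb from the gene with folds of 3.72, 4.35 and 3.64 and met the q threshold in all 3 libraries. The Ikzf2 region, 31.5 kb from the gene of the lymphoid factor Helios, had folds of 3.13, 3.24 and 3.21. The regions nearest to Runx1 and Erg ranked at 85.5% and 89.5% of the weakest list and were among the poorest of the 700.

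Genes that define stem cell identity had 2 regions of 58 (3.45%), nearest to Kit and Gfi1. Kit encodes the receptor of stem cell factor, and its region 87.9 kb away had folds of 3.76, 5.19 and 3.19. Gfi1, a repressor that restrains stem cell division, had folds of 2.80, 4.88 and 3.70 at 8.04 kb. Knockout replicate 2 was the highest in both, and the q threshold was met in 2 of 3 libraries in both.

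Gata2, a master regulator of blood stem cells, is known to be controlled by an enhancer far upstream, between it and the neighbouring gene Rpn1. Its region was chosen after the values were seen. It was chr6:88116270-88117055, 76.8 kb from Gata2 and 10.97 kb from Rpn1, with folds of 4.26, 4.27 and 4.35 in knockout replicates 1 to 3. The 3 values differed by less than 0.1, and all 3 libraries met the q threshold. However, the nearest wild-type peak lay only 0.096 kb from this region. Within 200 kb of Gata2 there were 31 regions between genes, and this was the only knockout-only one. Over all regions between genes the knockout-only share was 2.30%. As the region was chosen after its values were seen, the count around Gata2 is a description only. The position of the known enhancer is not in the files used here, so the match was not tested.

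Early response genes, including AP-1 factors, had 7 of 187 (3.74%), nearest to Atf3, Klf2, Klf4, Dusp1, Ier3, Fos and Egr2. Atf3, a stress-induced factor, had the best-ranked of these, 14.2 kb away, with folds of 4.95, 3.81 and 3.74. Klf2, a quiescence factor, had folds of 4.31, 3.29 and 4.74 at 15.1 kb. Cytokine signalling genes had 4 of 93 (4.30%), among them regions nearest to Csf3r, Jak2 and Il6st. Csf3r, the receptor of granulocyte colony-stimulating factor, had folds of 3.33, 3.95 and 3.95 at 5.10 kb.

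NF-κB genes had 3 of 87 (3.45%), nearest to Nfkbia, Ripk2 and Tnfaip3. Nfkbia encodes the inhibitor IκBα, and its region 14.6 kb away had folds of 5.05, 4.40 and 3.79. Ripk2, a kinase of innate signalling, had 2.86, 5.77 and 3.54 at 19.1 kb, with a q-value no higher than 0.05 in 2 libraries. Interferon genes had 2 of 66 (3.03%), nearest to the receptor genes Ifngr1, with 4.03, 3.70 and 5.79, and Ifnar1, with 2.54, 3.00 and 2.93. Ifngr1 met the threshold in all 3 libraries and Ifnar1 in 1.

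Genes of p53 and apoptosis had 4 regions of 56 (7.14%), nearest to Pmaip1, Bcl2l11, Gadd45a and Cdkn1a. This was the highest share of the 17 lists, and its interval of 2.81% to 17.0% began just above the 2.69% of all genes. With 17 lists looked at and 4 regions counted it is a description only. Pmaip1 encodes the death inducer Noxa, and its region 35.9 kb away had folds of 3.82, 4.02 and 3.76 and met the threshold in all 3 libraries. Bcl2l11 encodes the death inducer Bim, with folds of 4.85, 3.41 and 4.38 at 41.1 kb. No base of the Bcl2l11 region was covered by peaks of all 3 libraries. The region near Cdkn1a, the gene of the cell cycle inhibitor p21, ranked at 90.2% of its weakest list.

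Genes of the PI3K, AKT and mTOR pathway, of which several are PP2A substrates, had 1 of 64 (1.56%), 54.4 kb from the kinase gene Sgk1, with folds of 5.41, 4.64 and 4.21. PP2A subunit and regulator genes had 0 of 12 (Wilson upper bound 24.2%). Cell cycle genes had 3 of 53 (5.66%, interval 1.94% to 15.4%), nearest to Mki67, Ccnd2 and Ccne1. The proliferation marker gene Mki67 had folds of 4.40, 4.09 and 4.74 at 19.3 kb, and the cyclin gene Ccnd2 had 3.57, 4.32 and 3.37 at 10.5 kb. The Mki67 region met the q threshold in all 3 libraries, although no base in it was covered by peaks of all 3.

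Lists of other cell types that the profiled cells could hold were looked at in the same way. Myeloid genes had 2 of 73, nearest to Csf3r and to Cebpb, a myeloid transcription factor (folds 4.06, 2.59 and 2.96 at 74.4 kb). Erythroid genes had 1 of 28, 13.2 kb from Tfrc (4.05, 2.78 and 4.23), and lymphoid genes 1 of 19, 10.3 kb from Klrb1c, a natural killer cell receptor gene (2.68, 3.06 and 3.16). Endothelial and stromal genes had 2 of 35, near Runx2, a bone factor, and Acta2, the smooth muscle actin gene, with folds of 4.62, 3.23 and 4.30 and of 5.65, 3.93 and 3.30. Megakaryocyte, mast cell and other-organ genes had 0 of 16, 0 of 18 and 0 of 8, with Wilson upper bounds of 19.4%, 17.6% and 32.4%. At gene ends, 12, 11 and 12 of 20 erythroid genes were marked in knockout replicates 1 to 3, against 6, 9 and 5 in the wild-type replicates, and 12, 11 and 12 of 21 myeloid genes, against 6, 10 and 6. Over all 21631 protein-coding genes 44.9%, 40.1% and 42.6% were marked in the knockout libraries, against 26.6%, 30.2% and 26.7% in the wild-type libraries. Other lists did not all go the same way: 8, 2 and 2 of 24 lymphoid genes were marked in knockout, against 2, 2 and 5 in wild type, and 6, 4 and 4 of 15 megakaryocyte genes, against 7, 6 and 2. Of 13 mast cell genes 2, 2 and 2 were marked, against 1, 1 and 1, of 16 endothelial and stromal genes 5, 3 and 2, against 1, 1 and 2, and of 20 genes of other organs 1, 1 and 1, against 0, 1 and 1. The part of other cells or of list length in the knockout-only regions was not tested.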

How the data were processed

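H3K27ac was profiled by CUT&RUN in 6 libraries, 3 per genotype. The submitters' processing notes name GRCm38/mm10 as the build and MACS2, BWA, Trimmomatic, HOMER, ChIPseeker and deepTools as tools, without versions; parameters and any control are not stated in the sources used here. The authors deposited 1 narrowPeak list per library. The deposited ratio is the fold over background at the summit, with the summit's −log10 p-value, and its −log10 q-value beside it, both deposited. The deposited score was not used. Lists began near a p-value of 0.01. Whole pileups were solved from fold and p for all peaks with −log10 p under 15, within 0.01.

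Peaks were merged and placed against 21631 RefSeq protein-coding genes (GRCm38.p6), with Python 3.11.15 and SciPy 1.17.1. The merging, the pileup solve and the tests were tested on simulated data. Libraries of 2 genotypes were compared by exact permutation, classes within knockout libraries by exact sign flips. Ranks order the best peak of each region by p within a list. Intervals are Wilson and cover counting of regions only. Of 374 list entries, 372 matched by symbol. Regions were named by rank, shared bases, grouping, distance, closeness to the distance limit, non-coding genes and list membership. Some items that these rules select are not reported here. The members and the lists were chosen with earlier results of these data known. No label gives separate animals by number, so p-values measure the spread between these libraries. Same-numbered libraries were not treated as pairs. Region sequences were not analysed here.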

Additional observations from a re-analysis of the deposited data

How the results depend on the processing

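Of 82 alternatives computed over 9 results, 62 kept a difference in its direction, a count within 1.5 times or a share within its 95% interval. The number of knockout-only regions between genes, 700, was 311 with equal numbers of peaks per list, 231 over 50 kb from gene ends and 379 when all RefSeq genes were avoided; without 1 library it lay between 892 and 1477, with 1477 without knockout replicate 2 and 1120 without knockout replicate 3. The share knockout-only, 2.30%, was 11.1% with q-values of at most 0.05, 1.62% with equal numbers of peaks and 1.71% over 50 kb, and 3.27% to 5.18% without 1 library (4.48%, 5.18% and 3.89% without knockout replicates 1 to 3, 3.98% without wild-type replicate 2). The difference in the share of peaks between genes, -5.11 points, reversed to 1.70 with q-values of at most 0.05, stood at -6.92 with equal numbers of peaks, was -4.37 with −log10 p-values of at least 3 and -4.55 on chromosomes 1 to 19 (exact permutation p = 0.3 for either), and lay between -6.89 and -3.81 without 1 library. The share of regions with a base shared by all 3 knockout libraries, 82.0%, was 91.2% with q-values of at most 0.05, 86.2% with equal numbers and 67.0% when peaks up to 200 bp apart were merged. The share with q-values of at most 0.05 in all 3, 30.9%, was 75.2% with equal numbers and 25.5% over 50 kb. With equal numbers, all kept peaks of knockout replicates 1 and 3 met that threshold by the cut itself. The class differences in fold and width kept their direction under every alternative run, including each library left out. The cause of each shift was not tested, except that fewer peaks, regions or libraries enter by construction. Same-numbered libraries correlated by 0.020, 0.024 and -0.0099 in their deviations, and differently numbered ones by -0.036 to 0.020. Correlations this small cannot decide whether the numbers pair the libraries. With a replicate block the difference of -5.11 points had an exact sign-flip p of 0.25. Depth limits presence calls: peaks of 3 fragments could be listed.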

Other observations

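The 15 wild-type-only regions between genes are the mirror set of the rule and were not part of any comparison. The best-ranked lay 32.0 kb from Podxl, which encodes a sialomucin of stem cells and endothelium, with folds of 5.42, 3.79 and 4.005 in wild-type replicates 1 to 3. The next lay 14.8 kb from Mid1 on the X chromosome (5.23, 3.20 and 4.14) and 17.7 kb from Gdi2 (4.67, 3.53 and 4.38). Mid1 encodes a ubiquitin ligase subunit known to act on the catalytic subunit of PP2A. None of these 3 regions met a q-value of 0.05 in all 3 wild-type libraries.

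Knockout libraries shared more regions with each other than wild-type libraries did. Of the regions in either list, 28.0% to 36.8% were shared between pairs of knockout libraries, against 19.03% to 22.2% between pairs of wild-type libraries. Pairs of 1 knockout and 1 wild-type library shared 17.6% to 24.0%, a range that holds all the wild-type pairs. The knockout lists are the longer ones, and the part of list length was not tested.

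The 200 kb around Ikzf1, which encodes the lymphoid factor Ikaros, held 2 knockout-only regions among 24 regions between genes, 127 and 111 kb from the gene and nearest to 4930512M02Rik. Their folds were 2.87, 3.08 and 3.11, and 3.22, 4.19 and 2.42, in knockout replicates 1 to 3. Around Myb, 2 of 30 were knockout-only, 60.3 and 67.5 kb from the gene, and around Myc 3 of 37. Around Lmo2 it was 1 of 25, around Ikzf2 and Runx1 1 of 18 each, and around Erg 1 of 13. Over all regions between genes 2.30% were knockout-only. Only genes with at least 1 knockout-only region within 200 kb are named here, so the 2.30% cannot be set against these counts. Ikzf1, Myb and Myc were chosen after their values were seen, and these counts are a description only.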
